A study of Saccharomyces cerevisiae with 2 samples.

Results

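The 100 yeast genes whose coding sequences are richest in codons for the acidic amino acids aspartate and glutamate were described by their ribosome footprints and their transcript abundance. They were found by ranking the 4435 listed genes of at least 100 codons by the share of their codons that are GAT, GAC (aspartate), GAA or GAG (glutamate), and taking the 100 highest. In all, 4579 genes were listed. The ranking itself used the coding sequence alone, but it could rank only listed genes, and no listed gene has under 25 footprints. The data came from 1 strain of budding yeast (Saccharomyces cerevisiae yJC2229), with 1 library of ribosome-protected fragments and 1 library of total RNA. The labels give the strain by name only and do not say whether both libraries came from the same culture. Cultures in YPD at 24 °C (rich medium, pH 6.5, 2% glucose) were sampled in mid-log phase without pretreatment. They were lysed in cycloheximide, which stops elongating ribosomes, and footprints were taken from the 80S fraction of a sucrose gradient.

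Ribosome footprints are the stretches of mRNA that a ribosome shields from nuclease, so their number on a gene follows both how much mRNA there is and how many ribosomes sit on each molecule. Aspartate and glutamate carry negative charge at the pH of the cell. Proteins rich in them are common among histone chaperones, nucleolar ribosome assembly factors and subunits of transcription complexes, where acidic stretches bind basic partners. How long a ribosome stays on a codon differs between codons, and footprints per codon occurrence are used to look at this.

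The footprint table held 3756929 footprints over 2292688 codons, with a median of 157 footprints per gene and a minimum of 25. The second measure was the authors' abundance column. Its header says FPKM and names no library, but its values were whole multiples of 0.0459 CPM, so it was read as reads per gene not divided by length. Whether these reads are those of the total RNA library is not stated, so the ratio of footprints to reads used here is translational efficiency only if they are. There is no replicate of either library, so no p-value is given, all intervals cover counting error only, and differences between the genes and the rest are descriptions with no test. Footprints vary more than counting allows: at sense codons that occur once in a gene, the variance was 13.8, 12.1 and 15.1 times the mean in those acidic genes with at least 100 footprints and reads that averaged under 1, from 1 to under 3, and from 3 to under 20 footprints per codon. Differences between codons and genes add to that variance.

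Aspartate and glutamate codons made up between 21.1% and 39.2% of the codons of the 100 genes, with a median of 23.0%, against a median of 12.4% in the other 4335 genes. The highest share belonged to QCR6 (YFR033C, chromosome VI, 224326 to 224769, sacCer3), the acidic hinge subunit of respiratory complex III, at 39.2% of 148 codons. The histone chaperones ASF1 (33.2%) and CHZ1 (33.1%) came next, then the tropomyosin TPM1 (29.0%), the nucleolar prolyl isomerase FPR3 (28.6%), the Paf1 complex subunit LEO1 (28.6%), the second tropomyosin TPM2 (28.4%), the ubiquitin ligase PSH1 (28.3%), the TFIID subunit TAF7 (27.9%) and the clathrin light chain CLC1 (27.4%). Just inside rank 100 stood VTA1 (21.15%), of endosomal sorting, and MTC1 (21.09%). Just outside stood SPC19 (21.08%), of the DASH spindle complex, and ELC1 (21.0%), an elongin C homologue.

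Glutamate outnumbered aspartate in 79 of the 100 genes, against 2583 of the other 4335. TPM2 was the most one-sided of the 10 genes with the highest shares, with 22.8% glutamate and 5.56% aspartate, while the ubiquitin conjugating enzyme RAD6, with an acidic tail, leaned the other way (6.94% glutamate, 16.2% aspartate). The choice among synonymous codons was close to that elsewhere: GAT was 64.8% of aspartate codons in the acidic set and 65.5% in the other genes, and GAA was 69.5% and 70.5% of glutamate codons. Basic residues were not scarce. Lysine and arginine codons had a median share of 13.3% in the acidic set and 11.8% in the other genes, and reached 23.3% in RRP36, a factor of small subunit assembly. Codons for large hydrophobic residues (phenylalanine, tryptophan, tyrosine, leucine, isoleucine, methionine and valine) had a median share of 26.2%, against 32.5% elsewhere. The acidic genes were also shorter, with a median of 298.5 codons (106 to 1659), against 430 in the other genes. Only 1 of them, the histone chaperone VPS75, overlaps another annotated gene (CWC25). VPS75 is also the one with 2 stop codons in its counted codons. None had a near-identical copy among the listed genes, taken as codon counts differing by at most 5% of the codons.

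The acidic genes together held 66813 footprints, 1.78% of the library, on 1.63% of the codons, and 1.13% of the listed reads. The translation genes EFB1, RPP2A and RPP1A supplied 51.9% of those footprints. Without these 3 genes the other members held 0.856% of all footprints and 0.709% of the reads. The median gene of the acidic set had 0.610 footprints per codon (quartiles 0.237 and 1.57), against 0.369 (0.141 and 1.16) in the other genes, a 1.65-fold difference of medians. Reads per codon differed less, with medians of 3.79 and 3.23, a fold of 1.17 (0.23 on the log2 scale), and this direction turned to -0.39 if the abundance column is read as already divided by length. Both spreads overlap almost wholly.

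**Figure D1:**
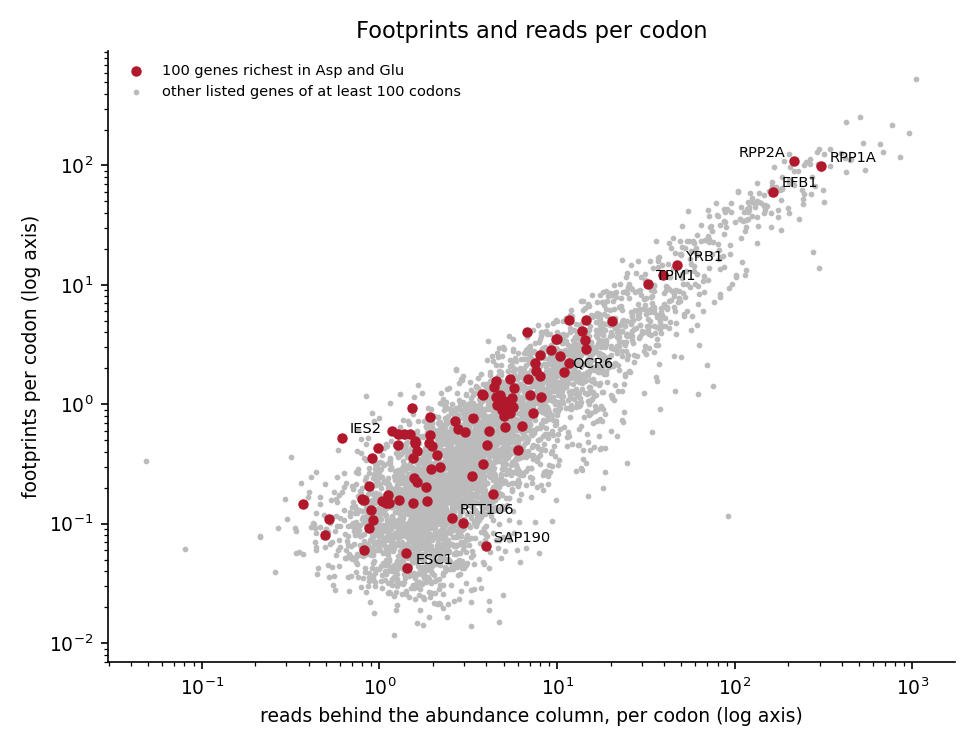
Footprints per codon against reads per codon for the 100 genes richest in aspartate and glutamate (red) and the other 4335 listed genes of at least 100 codons (grey), both axes logarithmic; each point is 1 gene. The red points spread over nearly the whole range of the grey ones, from ESC1 at 0.0428 footprints per codon to RPP2A at 108.

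RPP2A, an acidic phosphoprotein of the ribosomal stalk, had 11558 footprints and 23104 reads, or 108 footprints per codon. Its partner RPP1A had 10540 footprints and 32676 reads (98.5 footprints per codon), and EFB1, the exchange factor that reloads elongation factor eEF1A with GTP, had 12558 footprints and 34081 reads (60.4 per codon). These 3 stood apart from the rest of the set. Next per codon came YRB1, which binds the nuclear transport GTPase Ran, with 2943 footprints and 14.6 per codon. The initiation factor eIF1A gene TIF11 had 1848 footprints (12.0 per codon) and TPM1, which coats actin cables, had 2024 (10.1 per codon). FPR3 (1456 footprints), FPR4 (1133), CLC1 (962) and the histone chaperone NAP1 (924) completed the 10 genes with the most footprints. At the low end, 64 of the 100 genes had under 1 footprint per codon, 24 had under 100 footprints and 1, the centromeric histone chaperone SCM3, had under 100 reads. In all, 76 genes had at least 100 footprints and 100 reads.

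Dividing a gene's share of the footprints by its share of the listed reads gives its footprint to read ratio, which is 1 for the libraries as a whole. Over all 100 acidic genes the median ratio was 1.25 (quartiles 0.818 and 1.77), against 0.682 (0.376 and 1.15) in the other genes, a fold of 1.84. The ratio was at least 2 in 17 of the 100 acidic genes, where 7.55% of all 4435 genes reached that level. It was at most 0.5 in 11 of them, where 35.8% of all genes did. Among genes with at least 100 footprints and reads, 15 of 76 acidic genes reached 2 (10.6% of all such genes) and 4 were at or under 0.5 (21.9%), and the medians were 1.40 and 0.868. This minimum was met by 76 of 100 acidic genes and 63.3% of the others. A floor on footprints takes out low ratios more than high ones. Of the 11 acidic genes at or under 0.5, 4 met the minimum, and of the 17 that reached 2, 15 did.

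Coding length moved with this difference. Across all 4435 genes the ratio fell with length (Spearman rho -0.81, a description over genes of the same libraries), and across the 100 acidic genes the rho was -0.57. Among genes of 100 to under 150 codons the median ratio was 1.82 in 12 acidic genes and 2.01 in 277 others, and from 150 to under 200 codons it was 1.52 in 12 and 1.62 in 309. Under 200 codons, 10 of 24 acidic genes lay above the median of the others in their class. In longer classes the order turned. The medians were 1.40 against 1.20 from 200 to under 300 codons (26 acidic genes), 1.02 against 0.771 from 300 to under 500 (32), 0.757 against 0.413 from 500 to under 1000 (13) and 0.197 against 0.156 from 1000 codons on (5). From 300 to under 1000 codons, 37 of 45 acidic genes lay above the median of the others in their class. Subtracting a smooth trend of the log2 ratio on length, fitted to the other genes, left a median of 0.34 in the acidic genes and 0.03 in the others on the log2 scale, with 67 of 100 and 52.0% above the trend, against a difference of 0.88 in the log2 medians before.

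**Figure D2:**
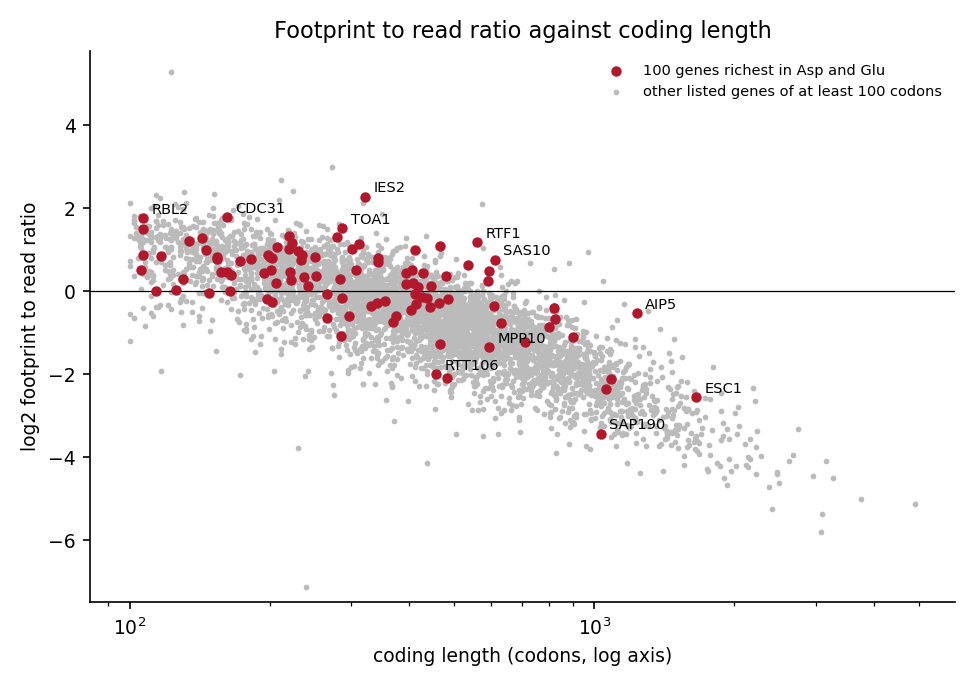
Log2 footprint to read ratio against coding length (log axis) for the 100 genes richest in aspartate and glutamate (red) and the other 4335 genes (grey); each point is 1 gene and the line marks a ratio of 1. Red points of 300 to under 1000 codons mostly lie in the upper part of the grey cloud, while those under 200 codons lie in its middle.

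IES2 (YNL215W, chromosome XIV, 244468 to 245430), a subunit of the INO80 chromatin remodeller, had the highest ratio of the acidic genes. It had 169 footprints and 197 reads, a ratio of 4.88 (95% interval 3.95 to 6.02, exact binomial). CDC31, the yeast centrin of the spindle pole body, had 151 footprints and 247 reads (ratio 3.47, 2.82 to 4.27). RBL2, which binds free beta-tubulin, had 430 and 721 (3.39). TOA1, the large subunit of the general transcription factor TFIIA, had 171 and 338 (2.88). Their reads per codon lay between 0.614 in IES2 and 6.74 in RBL2. RPP2A (2.84), the ubiquitin conjugating enzyme UBC8 (2.51), ASF1 (2.47), the shared RNA polymerase I and III subunit RPC19 (2.45), the Paf1 complex subunit RTF1 (2.29) and DOS2 (2.22) completed the 10 highest among genes with at least 100 footprints and reads.

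Among acidic genes with at least 100 footprints and reads, SAP185, a partner of the Sit4 phosphatase, had the lowest ratio, with 108 footprints and 3123 reads over 1059 codons (0.197, 0.161 to 0.238). MPP10, a core factor of the small subunit processome, followed among these genes with 245 footprints and 3558 reads (0.391). BUD14 (0.432), a regulator of the Glc7 phosphatase, UTP14 (0.469), BUD27 (0.547), ESF1 (0.588), the kinetochore protein SLK19 (0.633), VPS75 (0.639) and the SCF ubiquitin conjugating enzyme CDC34 (0.658) came next, then AIP5 (0.697). Among the genes under that minimum, the SAP185 relative SAP190 had the lowest ratio of all 100 genes, with 67 footprints and 4108 reads over 1034 codons (0.0927, 0.0717 to 0.118). ESC1 (0.170), IFH1 (0.230), TFA1 (0.234), RTT106 (0.249), URN1 (0.416) and the Mediator subunit MED4 (0.472) were also at or under 0.5. With the length trend subtracted, AIP5 (1234 codons), a protein of actin assembly, lay at 2.09 on the log2 scale, far above the genes of its length. Of the other low ratios, SLK19 (1.04), UTP14 (0.81), BUD27 (0.76), ESC1 (0.72), ESF1 (0.38), IFH1 (0.20) and BUD14 (0.18) lay above the trend. SAP185 (-0.08), MPP10 (-0.31), CDC34 (-0.61), URN1 (-0.61), VPS75 (-0.79), MED4 (-1.14) and SAP190 (-1.21) lay below it. The small subunit factor SAS10 (1.86), RTF1 (2.14) and IES2 (2.39) also lay well above the trend, and among all 100 genes RTT106 (-1.39), a histone chaperone, and TFA1 (-1.38), of TFIIE, were the lowest.

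Sorted by role, the 17 ribosome assembly factors had a median ratio of 1.41, and 15 of them lay above the length trend, where 52.0% of the other genes did. They ran from MPP10 (0.391) to RRP36 (2.04, 138 footprints and 385 reads). FPR3 (2.01) and FPR4 (1.13), both nucleolar prolyl isomerases, MAK16 (1.43) and EBP2 (1.35), of large subunit assembly, and BFR2 (1.56), KRI1 (1.41) and SAS10 (1.70), of small subunit assembly, lay between them. Of the 17, 13 had a ratio above 1, as did 63 of all 100 acidic genes and 32% of all 4435 genes. LTV1, a late factor on the small subunit (0.821), ESF1, UTP14 and MPP10 were below it. All 17 passed the minimum of 100 footprints and reads. Above the length trend also lay 12 of 16 transcription genes, 8 of 12 chromatin genes and 6 of 9 cytoskeletal and spindle genes. So did 5 of 9 membrane traffic genes, 4 of 6 translation genes, 4 of 6 phosphatase regulators and 4 of 7 ubiquitin genes. The counts were 1 of 3 in prefoldin and folding, 1 of 3 in mitochondria and peroxisomes, and 7 of 12 elsewhere. The median about the trend was 0.56 in ribosome assembly and 0.08 in translation, on the log2 scale.

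The 16 transcription genes had a median of 1.27, from IFH1 (0.230, 62 footprints and 1535 reads), the activator of ribosomal protein genes, to TOA1 (2.88). Subunits of the Paf1 elongation complex differed: RTF1 had 435 footprints and 1080 reads (ratio 2.29, 2.04 to 2.56), LEO1 had 262 and 694 (2.15, 1.85 to 2.48) and PAF1 had 261 and 1361 (1.09, 0.951 to 1.25). PAF1 lies apart from the other 2 by more than counting error. Among RNA polymerase subunits RPC19 was at 2.45, RPO26, shared by all 3 nuclear polymerases, at 1.38, RPC31 at 1.30, RPC37 at 1.23 and RPB4 at 1.21. RPC19 also had the most footprints per codon of these, at 5.03, followed by RPO26 at 4.94, and the other 3 lay between 0.774 and 1.07.

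The 12 chromatin genes had a median of 1.25 and a wide range, from ESC1 (0.170), a silencing factor of the nuclear rim, to IES2. INO80 subunits were among them, IES2 at 4.88, IES4 at 1.81 (1.51 to 2.17) and IES5 at 1.03 (0.832 to 1.26), whose intervals do not overlap. The histone chaperones ASF1 (2.47), SCM3 (2.26), CHZ1 (1.77), NAP1 (1.07), VPS75 (0.639) and RTT106 (0.249) covered a wide span, with ASF1 at 120 footprints and 276 reads and RTT106 at 51 and 1163. The 6 translation genes had a median of 1.78 and the highest footprint density, with a median of 36.2 per codon. RPP2A (2.84), EFB1 (2.09), RPP1A (1.83) and TIF11 (1.72) were above 1, and GIR2 (0.958), a partner of the translation regulator Gcn1, and ETT1 (0.809), a factor of translation termination, below it.

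Cytoskeletal and spindle genes (9, median 1.38) ran from SLK19 (0.633) to CDC31 (3.47), and the 7 ubiquitin genes (median 1.15) from MND2 (0.596), of the anaphase-promoting complex, to UBC8 (2.51). SKP1, the adaptor of SCF ligases, was at 1.36. The 9 genes of membrane traffic and autophagy (median 1.01) ran from COG8 (0.777) to SSP120 (1.83), and the 6 regulators of phosphatases and signalling (median 0.598) from SAP190 to GLC8 (1.95), of the Glc7 phosphatase. Prefoldin and folding genes ran from BUD27 to GIM3 (1.23), and mitochondrial and peroxisomal genes from MIA40 (0.728), the disulfide relay of the intermembrane space, to the peroxisomal import receptor PEX19 (1.76). QCR6 had 275 footprints and 1612 reads (0.970, 0.850 to 1.10).

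**Figure D3:**
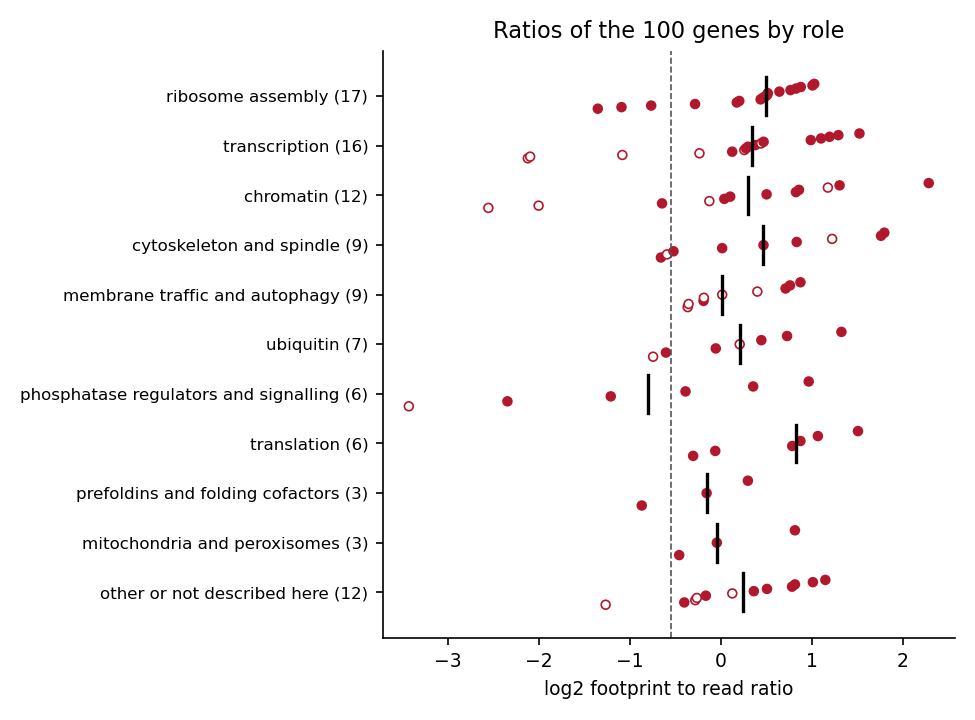
Log2 footprint to read ratio of each of the 100 genes richest in aspartate and glutamate, by role, with the number of genes in brackets. Filled points have at least 100 footprints and 100 reads, open points fewer; black bars are medians over all genes of a role and the dashed line is the median of the other 4335 genes (-0.55). Every role but the phosphatase regulators has its median to the right of that line.

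Separate lists of genes of similar roles, which hold acidic and other genes, gave such medians side by side. They leave out some acidic genes of the roles above. Among these are low ones such as UTP14 (0.469), IFH1 (0.230) and ESC1 (0.170) and high ones such as ELF1 (1.98) and SCM3 (2.26). The acidic medians here therefore differ from those by role. Of 108 listed ribosome assembly and nucleolar factors, 15 were in the acidic set, with a median ratio of 1.41 against 0.889 for the other 93. The medians were 1.07 for 9 acidic genes against 0.575 for 53 others among histone chaperones and chromatin genes, 1.27 for 12 against 0.894 for 62 among RNA polymerases and transcription factors, and 1.83 for 5 against 0.868 for 54 among translation factors and stalk proteins. They were 1.51 for 4 against 0.973 for 60 among ubiquitin and proteasome genes, and 1.69 for 5 against 0.623 for 42 among calcium binding, clathrin and cytoskeletal genes. Chaperones and co-chaperones gave 1.15 for 4 and 1.20 for 47. Of those 4, CHZ1 and NAP1 are also among the 9 acidic genes of the chromatin list. Nuclear transport held 1 acidic gene, YRB1 (1.76), against 0.612 for 33, and mitochondrial genes held 1, QCR6 (0.970), against 1.49 for 28. In each list but the chaperones and the mitochondrial genes the acidic genes on the list were higher. They were also shorter, with median lengths of 412 and 454 codons in ribosome assembly, 280 and 567 in chromatin and 321 and 350.5 in transcription. The median lengths were 154 and 396 codons in translation, 207.5 and 429 in ubiquitin, and 164 and 615 in calcium binding, clathrin and cytoskeleton. YRB1 has 202 codons, against a median of 542 in the other nuclear transport genes. The part of length in these differences was not tested.

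Related pairs within the set differed. TPM1 had 10.1 footprints and 32.3 reads per codon, and TPM2 2.52 and 10.4, so TPM1 was 4.01 times as high in footprint density and 1.29 times as high in the ratio. FPR3 had 3.53 footprints and 9.99 reads per codon, and FPR4 2.88 and 14.5. FPR3 therefore had more footprints on fewer reads, and its ratio was 1.78 times that of FPR4. SAP185 and SAP190 both lay far below 1, with the ratio of SAP185 2.12 times that of SAP190. RPP2A exceeded RPP1A 1.55-fold in the ratio, with 0.707 times its reads per codon.

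Aspartate and glutamate codons themselves held fewer footprints than the average codon of the same genes. In the codon value used here, footprints per occurrence are divided by the gene's own mean per codon and averaged over occurrences, so that 1 is the average codon of a gene. In the 76 acidic genes with at least 100 footprints and reads, 11559 footprints lay on 6280 aspartate and glutamate codons, and the value was 0.810 (counting interval 0.774 to 0.849), against 0.883 (0.874 to 0.891) in the 2744 other genes. Aspartate codons stood at 0.826 (0.773 to 0.886) in the acidic genes and 0.919 (0.907 to 0.931) in the others. Glutamate codons stood at 0.799 (0.750 to 0.852) and 0.850 (0.839 to 0.862), with intervals that overlap. Over all 100 acidic genes, with no minimum, the value of the 4 codons together was 0.844 (0.799 to 0.893), against 0.883 (0.872 to 0.894) in all others, so that the intervals overlap and the difference was not detectable at this depth.

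Of the 4 codons GAA was the lowest, at 0.708 (0.654 to 0.769) in the acidic genes, against 0.799 in the others. GAT was at 0.806 (0.739 to 0.882), against 0.890, and GAC at 0.862 (0.773 to 0.968), against 0.969. GAG stood at 1.00 (0.904 to 1.12), against 0.980, level with the average codon in both groups. The codon value of GAG was 1.42 times that of its synonym GAA in the acidic genes and 1.23 times in the others. With no minimum it was 1.30 times in all 100 acidic genes and 1.23 times in all others. Raw counts run the other way: in the acidic genes with at least 100 footprints and reads, 1235 footprints lay on 1104 GAG codons and 5436 on 2509 GAA codons. EFB1, RPP2A and RPP1A, the acidic genes with the most footprints, have 0 GAG codons each. With no minimum, GAA (0.741 in all 100 acidic genes, 0.795 in all others) and GAT (0.841 and 0.903) kept their direction, while GAC (0.976, interval 0.855 to 1.13, and 0.956) and GAG (0.967 and 0.974) turned. The counting intervals of the groups overlapped for GAT, GAC and GAG with the minimum, and for all 4 codons without it. For GAA without it they were 0.674 to 0.820 and 0.779 to 0.812. Where intervals overlap, the difference between the groups was not detectable at this depth.

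Because these codons make up so much of the gene, they weigh on the gene mean they are set against. They were therefore also set against the other sense codons of the same genes. In the 76 acidic genes with at least 100 footprints and reads, aspartate and glutamate codons held 0.773 times the footprints of those codons. The 2744 other genes gave 0.876. Glutamate was at 0.762 and 0.844 and aspartate at 0.789 and 0.911. With no minimum the values were 0.814 and 0.876, with glutamate at 0.781 and 0.842 and aspartate at 0.857 and 0.915. When all 4435 genes were cut into 10 equal classes of rising aspartate and glutamate share, the class with the lowest share had 0.916 by this measure and the second 0.943. The classes between rose and fell from 0.874 to 0.925, and the last 3 had 0.861, 0.834 and 0.791. The last class, of 443 genes, takes in the 100 acidic genes, so its value is not separate from theirs.

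This low value was not shown to be particular to acidic genes. Lists of the 100 genes richest in asparagine and glutamine, in proline, and in lysine and arginine share 0, 1 and 3 genes with the acidic set. Of their genes, 71, 67 and 87 had at least 100 footprints and reads. In those genes aspartate and glutamate codons stood at 0.723, 0.777 and 0.793 of the other sense codons. The 76 acidic genes with that minimum gave 0.773. Over all 100 genes of each of these 3 lists the median footprint to read ratio was 0.769, 1.01 and 1.98. Their median lengths were 532, 368 and 171 codons, and 77, 67 and 72 of their genes lay above the length trend, against 67 of the acidic genes.

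**Figure D4:**
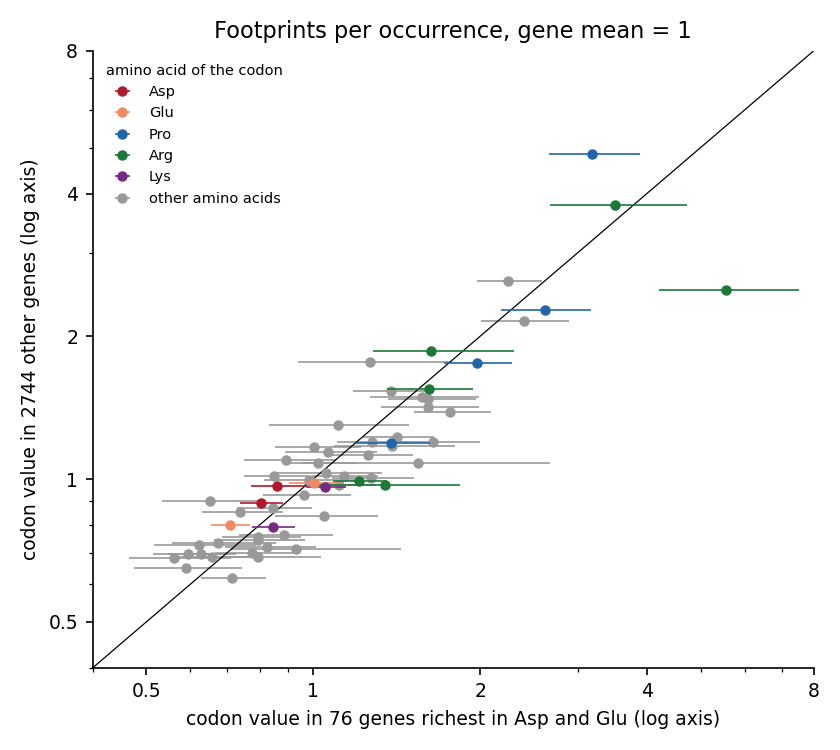
Codon value (footprints per occurrence over the gene's own mean) of the 61 sense codons in the 76 genes richest in aspartate and glutamate with at least 100 footprints and reads (x axis) and in 2744 other genes (y axis), both log axes, coloured by amino acid. Horizontal bars are 95% counting intervals in the acidic genes and the line marks equality; 3 of the 4 aspartate and glutamate codons lie left of it, between 0.708 and 0.862.

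Among other codons, lysine codons were at 0.959 in the acidic genes and 0.885 in the others, and arginine codons at 1.58 and 1.28. Proline codons were at 2.01 (1.86 to 2.17) and 1.89 (1.87 to 1.91), with intervals that overlap, and with no minimum the order turned, at 1.96 and 1.97. The arginine codon CGG was the highest sense codon in the acidic genes, at 5.56 (4.21 to 7.52), against 2.51 elsewhere, with only 33 occurrences and 122 footprints. Of these footprints 30 lay on the single CGG of CDC34, 12.0% of that gene's 250 footprints. CCG, a proline codon, was at 3.19 in the acidic genes and 4.84 in the others. Stop codons were at 3.92 (3.36 to 4.71) and 4.61 (4.48 to 4.75), with intervals that overlap.

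Gene by gene, the footprint share on aspartate and glutamate codons was under their share of codons in 76 of the 100 acidic genes, where 66.4% of all 4435 genes had it so. It was under by more than its exact binomial interval in 44 acidic genes (25.2% of all genes) and over by more than the interval in 5 (8.97% of all genes). The acidic genes hold more such codons each, which narrows the interval relative to the share. By role, the share was under that of the codons in all 12 chromatin genes, all 6 translation genes and 16 of the 17 ribosome assembly factors. It was so in 11 of 16 transcription genes, 6 of 9 cytoskeletal and spindle genes, 5 of 9 membrane traffic genes, 5 of 7 ubiquitin genes, 3 of 6 phosphatase regulators, 2 of 3 prefoldin and folding genes, 2 of 3 mitochondrial and peroxisomal genes and 8 of the 12 others. The phosphatase regulators had a median relative share of 1.06.

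QCR6 stood out at the top of the ranking: 39.2% of its codons encode aspartate or glutamate, but they held 39 of 275 footprints, 14.2% (10.3 to 18.9). The shares were 18.3% of 120 footprints on 33.2% of the codons in ASF1, 24.2% of 442 on 33.1% in CHZ1 and 22.7% of 1456 on 28.6% in FPR3. TPM1, with 27.9% of 2024 footprints on 29.0% of the codons, and CLC1, with 28.6% of 962 on 27.4%, lay at the level of their codon shares. The 2 lowest shares among genes with at least 100 footprints, picked after their values were seen, were those of DEP1, a subunit of the Rpd3L deacetylase, with 4 of 165 footprints on 88 such codons (2.42%, 0.664 to 6.09), and IES2, with 10 of 169 on 85 (5.92%, 2.87 to 10.6).

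Among genes with at least 300 footprints, the lowest relative to their codons were MAK16 (9.40% of footprints, 0.431 times the codon share), GLC8 (12.6%, 0.491), YPR148C (11.9%, 0.544), BFR2 (12.8%, 0.590) and RTF1 (13.3%, 0.601). The highest was SSP120, with 222 of 610 footprints on 52 such codons (36.4%, 1.64 times the codon share). In this gene 160 footprints lay on its 13 GAT codons. SKP1 followed at 1.13 times, with 94 of its 673 footprints on 19 GAC codons, then RPO26 (1.10), RBL2 (1.07) and CLC1 (1.05). The intervals of SKP1, RPO26, RBL2 and CLC1 include their codon shares. In ELF1, a small transcription elongation factor, 251 of 741 footprints lay on its 5 AAG lysine codons, 33.9% of the gene. In RPP2A 2839 footprints (24.6%) lay on 19 GCT alanine codons and in EFB1 2896 (23.1%) on 24 GCT codons.

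**Figure D5:**
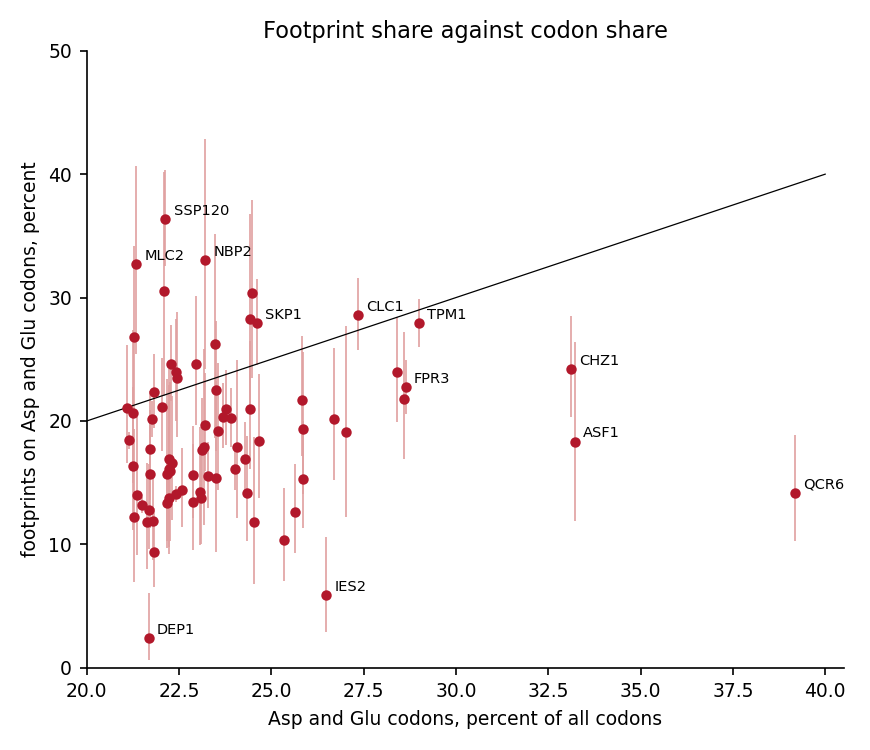
Share of a gene's footprints on aspartate and glutamate codons (y axis, percent) against the share of its codons that are aspartate or glutamate (x axis, percent) for acidic genes with at least 100 footprints; bars are exact binomial 95% intervals and the line marks equal shares. Most points lie under the line, from DEP1 at 2.42% and QCR6 at 14.2%, while SSP120 at 36.4% lies above it.

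Within the acidic set, the share of aspartate and glutamate itself went weakly with the other measures (Spearman rho over 100 genes of 0.16 with footprints per codon, 0.17 with the ratio and -0.04 with the relative footprint share on these codons). Glutamate as a part of the acidic codons did the same (0.08, 0.08 and -0.19). The rho between footprint density and read density was 0.86. These rhos come from genes of the same 2 libraries and are descriptions.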

How the data were processed

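Per the labels' protocols, footprints were purified from the 80S fraction of cells lysed in cycloheximide, total RNA was broken by alkaline hydrolysis, and rRNA was removed with Ribo-Zero. Per the submitters' processing notes, cutadapt, Bowtie2, HISAT2 and HTSeq were used with the sacCer3 build; for versions, order, strand use, the ribosomal site counted and duplicate removal the entry is: not given in the sources used here. The deposited footprint columns are raw counts per gene and codon, per the file headers. A second set of 64 columns holds codon occurrences per gene, which the authors gave as whole numbers. The deposited abundance column is headed FPKM, but 100% of its values are whole multiples (within 0.001 reads) of a step of 0.0459 CPM, or 21771294 reads, 98.1% of them in listed genes; it was read as CPM and turned into reads. If the authors did divide by length, the values differ as given in the closing section.

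Gene symbols and coordinates came from RefSeq assembly R64, which matched 4578 of 4579 identifiers. Intervals (95%) are exact Clopper-Pearson ones for ratios and shares and gamma ones for codon values; they cover counting error only, since PCR copies without molecular identifiers are not separate molecules. The length trend is LOWESS (fraction 0.3). With 1 library of each kind no test was run; "at least 2" and "at most 0.5" are a fold of 2. Genes were named by fixed rules (the 10 members with the highest acidic share, with the most footprints, and at either end of the ratio among those with at least 100 footprints and reads; the 5 at either end of relative acidic footprint share among those with at least 300 footprints; the ends of each role list; the neighbours of rank 100); other genes were named after their values were seen, and roles were assigned once the members were known. Acidic run lengths and positions within genes were not analysed here. The members and lists were chosen with earlier results of these data known. Scripts were tested on simulated data and run with Python 3.11.15, scipy 1.17.1 and statsmodels 0.14.6. Depth in total: 3756929 footprints, 1.64 per codon.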

Additional observations from a re-analysis of the deposited data

How the results depend on the processing

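In genes with at least 100 footprints and reads, the median log2 ratio of the acidic genes exceeded that of the others by 0.69. It exceeded them by 1.30 if the column is read as divided by length. Other settings (the 50 or 200 highest genes, other count minimums, median scaling, added pseudocounts, leaving out stop codons, the richest codon column, the overlapping gene, or the 3 genes with most footprints, or counting only footprints off acidic codons) gave 0.57 to 0.88. The acidic genes had a median of 0.33 relative to other genes of the same length class and of 0.20 about a smooth trend on length. With no minimum these medians were 0.20 and 0.34, where the other genes had 0.03 about the trend. Reads per codon differed by 0.23 in log2 medians, and by -0.39 if the column is read as divided by length, the only reversal among these results; the cause of the other shifts was not tested. The value of aspartate and glutamate codons, 0.810, was 0.746 for pooled counts, 0.753 as a median over genes, 0.888 with values capped at the 90th percentile, 0.750 without the richest codon column of each gene and 0.773 against other sense codons; it stayed below the other genes' value in each of these. The settings with no minimum for length, the richest codon column on codon values, the other sense codons, the 3 genes left out, the footprints off acidic codons, and all alternatives for reads per codon were added after the data were seen. Of the 28 members past a fold of 2, 26 stayed past it under each of median scaling, length division and loss of the richest column. No paired analysis was possible because there is only a single library of either kind, and for the same reason no replicate could be left out. Depth limits single genes most: 24 of 100 had under 100 footprints.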

Other observations

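In the 76 acidic genes with at least 100 footprints and reads, asparagine codons stood at 0.614 of the gene mean, against 0.695 in the 2744 other genes. Glycine codons stood at 1.30 and 1.13, and alanine codons at 1.34 and 1.20. With no minimum the values were 0.645 and 0.695 for asparagine, 1.22 and 1.12 for glycine, and 1.29 and 1.21 for alanine. The intervals of the groups then overlap for each of them. Footprints were also summed over all occurrences of each codon in a gene. The codon with the highest sum was an aspartate or glutamate codon in 39 of these 76 acidic genes, against 15.3% of the other genes. These sums are not divided by occurrences, and the acidic genes hold more such codons.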
